A study of Homo sapiens with 6 samples.

Results

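The Notch pathway was followed in THP-1 cells, a human monocytic leukaemia line, through 10 genes: the receptors NOTCH1 and NOTCH2, the ligand JAG1, the nuclear proteins RBPJ and MAML1, and the target genes HES1, HES4, HES6, HEY1 and NRARP. They were chosen by symbol, with the difference between the monensin and untreated counts of HES1 already known, so their own values are described below without a test. All 10 symbols were found, each 1 time, among the 58395 genes of the count tables. One group of 3 libraries came from cells with no exposure. The other 3 came from cells given 1 µM monensin for 16 h; monensin is an ionophore that carries sodium ions into cells in exchange for protons. The labels name no vehicle for the untreated cells, so an effect of a vehicle and of monensin cannot be told apart. All 6 libraries come from the same cell line.

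Notch receptors are membrane proteins that are cut by furin in the Golgi, decorated with sugars and carried to the cell surface. When a ligand on a neighbouring cell pulls on the receptor, an ADAM protease and then gamma-secretase cut it, and the freed intracellular part enters the nucleus. There it binds the DNA-binding protein RBPJ and a Mastermind protein (MAML), and target genes of the HES and HEY families are switched on. HES and HEY proteins are basic helix-loop-helix repressors. HES1 also binds its own promoter and holds itself down, and in blood cells it is best known from T cell development and leukaemia. HES1 can also be induced by signals other than Notch.

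RBPJ recognises the letters TGGGAA, and the region before the HES1 start is a textbook site of its binding. The 250 bases before the start of 3 target genes are shown because HES1 and HES4 had the highest log2 fold changes among the 9 of these genes that could be fitted and NRARP, another Notch target, the lowest. They are RefSeq windows on GRCh38.p14, for HES1 chr3:194135898-194136147 on the plus strand, for HES4 chr1:1000098-1000347 on the minus strand and for NRARP chr9:137302272-137302521 on the minus strand. Capitals mark TGGGAA.
HES1: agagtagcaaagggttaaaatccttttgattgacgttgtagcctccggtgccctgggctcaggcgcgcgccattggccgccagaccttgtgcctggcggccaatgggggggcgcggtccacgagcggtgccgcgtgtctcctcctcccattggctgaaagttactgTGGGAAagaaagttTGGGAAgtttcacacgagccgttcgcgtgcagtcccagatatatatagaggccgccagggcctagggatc
HES4: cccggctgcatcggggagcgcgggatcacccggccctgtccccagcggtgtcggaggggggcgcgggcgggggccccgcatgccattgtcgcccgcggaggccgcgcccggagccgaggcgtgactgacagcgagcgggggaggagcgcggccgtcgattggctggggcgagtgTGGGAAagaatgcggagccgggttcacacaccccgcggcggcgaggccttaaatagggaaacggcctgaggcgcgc
NRARP: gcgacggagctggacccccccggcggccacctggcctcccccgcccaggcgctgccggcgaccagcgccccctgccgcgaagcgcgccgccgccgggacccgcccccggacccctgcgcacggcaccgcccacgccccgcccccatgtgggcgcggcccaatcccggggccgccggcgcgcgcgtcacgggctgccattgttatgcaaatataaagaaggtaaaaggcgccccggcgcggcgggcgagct

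The HES1 window held TGGGAA 2 times, starting 84 and 70 bases before the transcription start, both on the gene's own strand. HES4 held it 1 time, 76 bases before its start, and NRARP held none on either strand. The letters are common: 24.0% of 35116 promoter windows of 300 bases (250 before and 50 after the start, chromosome 8 left out) held TGGGAA on either strand, and 3.8% held it at least 2 times. The HES1 match at -84 and the HES4 match extend to TGTGGGAA, the HES1 match at -70 does not, and 1.71% of windows held the longer form; this longer form was chosen after the sequences were seen. The HES1 window also held 4 N boxes (CACNAG, present in 38% of windows) and 4 matches of CACGNG (30.5%), the classes of site that HES proteins bind. At 2 of these places, 132 and 58 bases before the start, the same letters matched both motifs. None of the windows of these genes held the ATF4 composite site TGATGNAA (3.62% of windows) or the cyclic AMP response element TGACGTCA (1.85%). The AP-1 motif TGANTCA (7.71%) was found in 1 of the 5 windows of RBPJ. Another RBPJ window held TGGGAA 2 times, and RBPJ was lower with monensin (log2 fold change -0.54). The windows of HES6, NOTCH1 and JAG1, which were higher, held no TGGGAA, nor did those of NOTCH2 and MAML1, which were lower. The genes whose sequences are shown were picked by their fold changes, so nothing is read from their number of matches. Windows were used for 9 of the 10 genes, because HEY1 lies on chromosome 8, which was left out. A match describes the letters and does not show that a factor was bound.

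**Figure D1:**
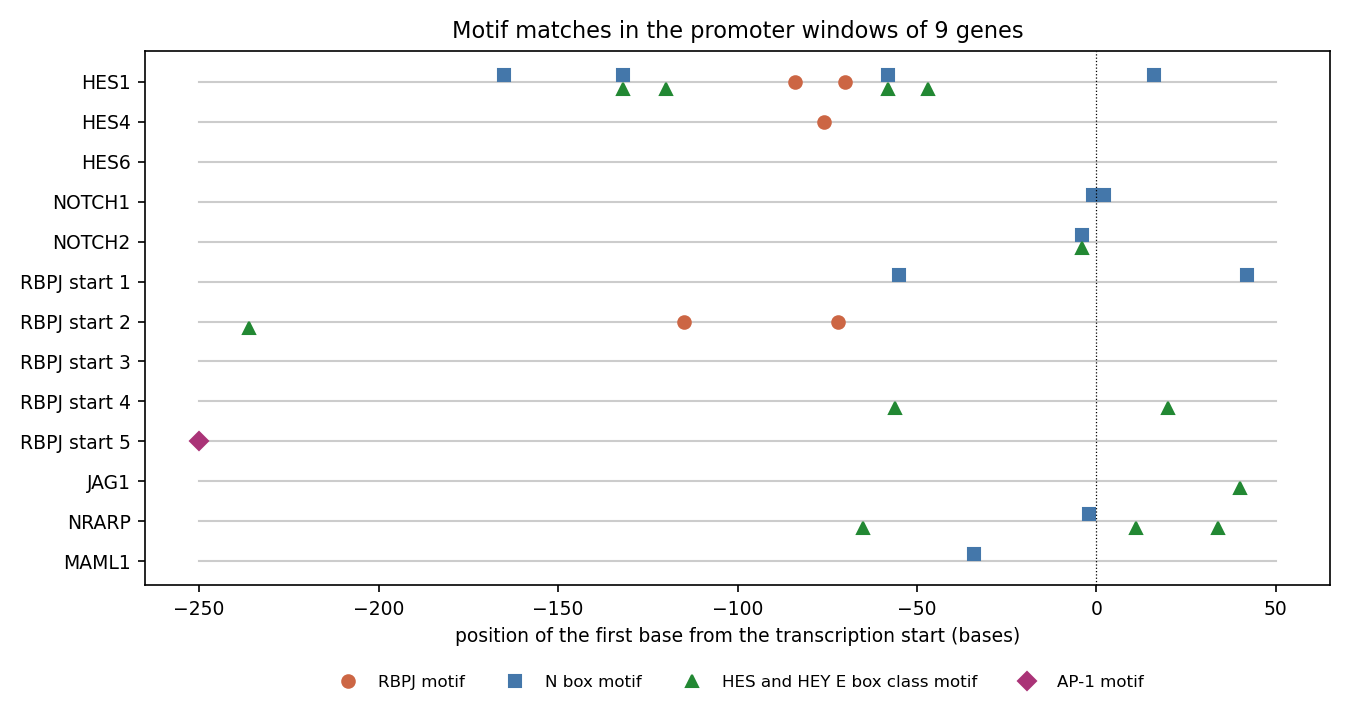
Position of the first base of each motif match, in bases from the transcription start, in the promoter windows of 9 genes, with 5 alternative starts of RBPJ on separate lines. Circles are TGGGAA, squares N boxes, triangles CACGNG and the diamond AP-1. HES1 carries 2 circles at -84 and -70, HES4 carries 1 at -76, and RBPJ carries 2 on 1 of its lines. NRARP and the other genes carry none.

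HES1 was near the limit of detection in untreated cells and well expressed after monensin. The untreated libraries held 14, 13 and 35 HES1 reads, and the monensin libraries 666, 637 and 587. Scaled to library size these were 0.561, 0.557 and 1.42 CPM (counts scaled to a common library size) without and 25.9, 25.5 and 25.1 CPM with monensin. The 3 monensin libraries lay close together and far above all 3 untreated ones, while untreated library 3 stood above the other two. The log2 fold change was 4.90 (SE 0.16), the 22nd highest of 16542 genes. Leaving out untreated library 3 gave 5.49, which is 44.9-fold in place of 29.9-fold. In the authors' deposited table of 2410 regulated genes HES1 has a log2 fold change of 4.89. HES1 lies on chromosome 3 from 194136145 to 194138732 (GRCh38, plus strand). In bulk RNA, more cells expressing a gene and more RNA per cell cannot be told apart.

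HES4, a human HES gene without a mouse counterpart, was the other of the 9 fitted genes that differed by more than 2-fold. It had 0.601, 0.729 and 0.607 CPM in untreated and 1.44, 1.76 and 1.88 CPM in monensin libraries, from counts of 15, 17 and 15 against 37, 44 and 44. The groups did not overlap, and the log2 fold change was 1.38 (SE 0.23). The authors' deposited table gives 1.37 for HES4, and none of the other 8 genes is in it. That table lists regulated genes only, so absence from it does not show that a gene was unchanged.

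HES6, a family member that is known to oppose HES1 protein rather than to be a classical Notch target, was the most abundant HES message before treatment. It had 40.9, 35.5 and 36.7 CPM in untreated and 41.8, 45.6 and 49.99 CPM in monensin libraries. The highest untreated library, at 40.9, almost met the lowest monensin library. Its log2 fold change of 0.28 (SE 0.07) became -0.047 when the trends with GC content and gene length were removed, so its direction depends on that choice. HEY1, a repressor related to HES1, was barely detected, with 2, 0 and 0 counts in untreated and 6, 5 and 4 in monensin libraries. After scaling to depth the ratio of the summed counts was 7.39, with a 95% counting interval from 1.72 to 66.6. HEY1 did not pass the filter on low counts and was not fitted.

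NRARP, a small ankyrin repeat protein that is induced by Notch and feeds back on the receptor's intracellular part, went the opposite way to HES1. It had 21.8, 22.3 and 20.4 CPM in untreated and 11.7, 13.0 and 12.2 CPM in monensin libraries. Every monensin library was below every untreated one, and the log2 fold change was -0.80 (SE 0.07). Correcting for GC content and length gave -1.11. NRARP lies on chromosome 9 from 137300482 to 137302251 (minus strand). The 2 Notch targets HES1 and NRARP thus had values in opposite directions under every alternative that was run.

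**Figure D2:**
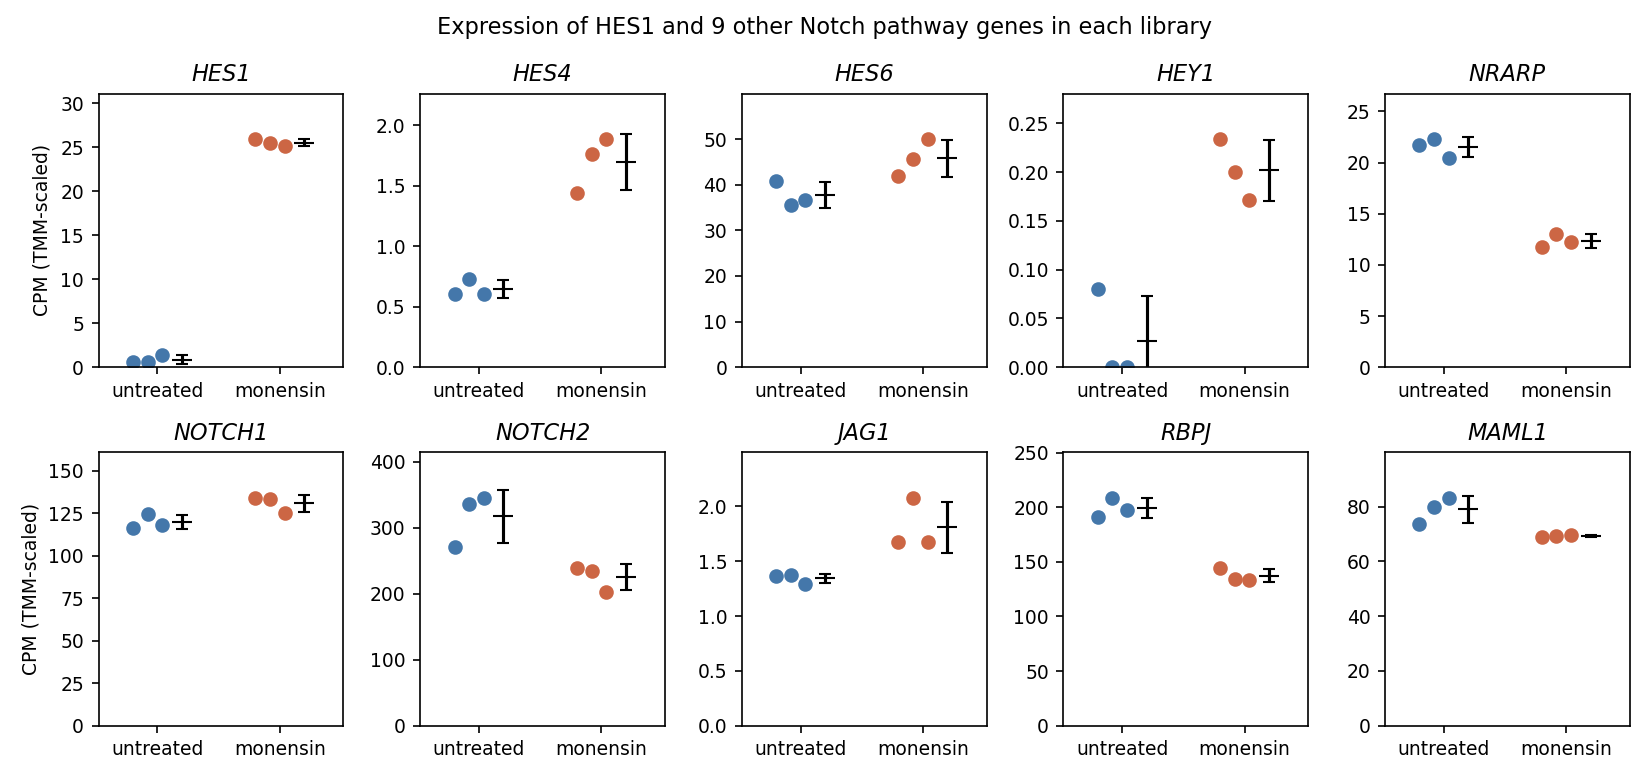
CPM of each of the 10 genes in every library (points), with the mean and SD of 3 libraries beside them (black); each axis starts at 0. HES1 goes from under 1.5 to about 25 CPM, and NRARP, NOTCH2, RBPJ and MAML1 are lower in all 3 monensin libraries.

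Of the receptors, NOTCH2 was lower with monensin and NOTCH1 was slightly higher. NOTCH2 had 271, 335 and 346 CPM in untreated and 239, 235 and 203 CPM in monensin libraries, a log2 fold change of -0.49 (SE 0.08). Untreated library 1 and monensin library 3 were each lower than the rest of their group. NOTCH1 had 116, 125 and 118 CPM in untreated and 134, 133 and 125 CPM in monensin libraries. Its highest untreated and lowest monensin libraries were 124.7 and 125.0 CPM, so the groups only just failed to overlap. The log2 fold change of NOTCH1 was 0.13 (SE 0.05), and near 0 (0.0054) after the correction for GC content and length. Per exonic length, the ratio of NOTCH2 to NOTCH1 went from 1.63 ± 0.184 to 1.06 ± 0.0550 (mean ± SD, n = 3 per group). The ratio depends on the length used. With coding length NOTCH2 had 44.8 and NOTCH1 16.3 TPM (counts scaled per length) in untreated cells. With monensin they had 32.4 and 18.1 TPM, every NOTCH2 library being above every NOTCH1 library. NOTCH2NL genes are near-identical copies of part of NOTCH2, so the assignment of reads from that part is uncertain. The NOTCH2NL row held 2 to 7 counts per library against 4728 to 8541 for NOTCH2.

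The ligand JAG1 had 34, 32 and 32 counts in untreated and 43, 52 and 39 in monensin libraries. The groups did not overlap at 1.29 to 1.37 against 1.67 to 2.08 CPM, and the log2 fold change was 0.43 (SE 0.19). An antisense transcript, AL050403.2, overlaps 79 exonic bases of JAG1 and had 0 counts in all 6 libraries.

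RBPJ and MAML1, the nuclear partners of the receptor among the 10 genes, were lower in CPM. The MAML1 relatives MAML2 and MAML3, described below, had positive log2 fold changes (3.18 and 0.34). RBPJ, through which Notch reaches DNA, had 191, 209 and 197 CPM in untreated and 144, 134 and 134 CPM in monensin libraries. Its log2 fold change was -0.54 (SE 0.05), and -0.23 after the correction for GC content and length. The 4 RBPJ pseudogenes in the tables had 0 counts in every library. MAML1, a co-activator that joins RBPJ and the cleaved receptor, had 73.7, 79.9 and 83.3 CPM in untreated and 68.8, 69.1 and 69.8 CPM in monensin libraries, a log2 fold change of -0.19 (SE 0.05). The monensin libraries of MAML1 were tightly grouped just below the lowest untreated one. In TPM, MAML1 was level, at 44.0 in untreated and 44.1 in monensin cells.

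In all, 6 of the 10 genes were higher and 4 lower in every monensin library than in every untreated one. For comparison, 71.1% of the 16542 genes that passed the filter had groups that did not overlap, 35.9% with monensin higher and 35.2% with monensin lower. The genes were chosen with this comparison known, so nothing is read from their count. Their median log2 fold change over the 9 that were fitted was 0.13, and that of all fitted genes was 0.02.

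Levels of different genes were compared as TPM, a scaled level that divides counts by the exonic length. In untreated cells the order was RBPJ (71.2), NOTCH2 (62.6), HES6 (61.3), MAML1 (44.0), NRARP (40.2), NOTCH1 (38.2), HES4 (1.91), HES1 (1.37), JAG1 (0.478) and HEY1 (0.0270 TPM). The 3 highest were neighbours whose libraries overlapped, as were MAML1, NRARP and NOTCH1 in that order, and HES4 and HES1. With monensin HES6 stood first at 84.9 TPM, above every library of RBPJ (56.2). NOTCH2 (50.8), NOTCH1 (47.7) and HES1 (46.8) followed with overlapping libraries. MAML1 (44.1), NRARP (26.3), HES4 (5.73), JAG1 (0.736) and HEY1 (0.237) came next; HES1 did not overlap MAML1, but the lowest NOTCH1 and NOTCH2 libraries lay just under the highest MAML1 library (44.46 and 44.48 against 44.65 TPM). From MAML1 down, no neighbours overlapped. The order depends on the length used: with coding length RBPJ stood first (97.3 TPM) and HES6 second (72.3 TPM) in monensin cells, without overlap. HES1 thus moved from the 8th to the 5th place, from the 7th to the 5th with coding length, and from the 8th to the 4th with the longest transcript. A TPM ratio between the groups exceeds the CPM ratio of the same gene by a factor of 1.14 (0.19 on the log2 scale), because the sum over lengths differs. On the TPM scale MAML1 was therefore level (44.0 ± 3.42 and 44.1 ± 0.670). TPM is used here for levels and shares, and TPM values set side by side for the 2 groups carry this factor.

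**Figure D3:**
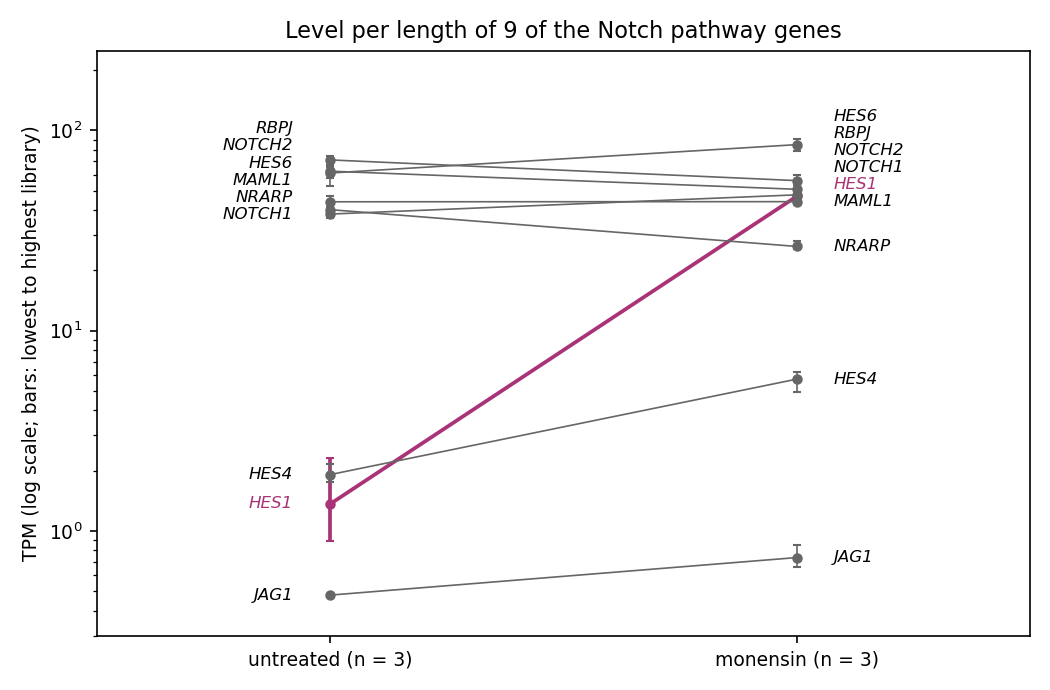
TPM of 9 of the genes on a log axis, as the mean of 3 libraries (points) with the lowest and highest library (bars); HEY1 is left out because 2 untreated libraries are at 0. HES1 goes from 1.37 TPM, next to HES4, to 46.8 TPM, next to NOTCH1.

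Within the HES and HEY family of 11 genes, the summed level was 85.3 ± 2.95 TPM without and 164 ± 4.19 TPM with monensin, a comparison that includes the factor of 1.14. HES1 made up 1.59% ± 0.933 of that sum in untreated and 28.7% ± 1.8 in monensin libraries. HES6 made up 71.9% ± 2.86 and 51.9% ± 2.19. HEYL, a relative of HEY1, made up 23.9% ± 2.27 and 15.0% ± 0.783. HEYL itself had 22.5 ± 1.37 and 23.7 ± 0.330 CPM and was not called (edgeR adjusted p = 0.308). It was the 1 of 7 further family genes that passed the filter. HES2, HES3, HES5, HES7, HEY2 and HELT did not pass it; HELT, named after its values were seen, had 1 count in each untreated and 8, 8 and 12 in the monensin libraries.

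Beyond the 10 genes, 96 others with a known place in or around Notch signalling were listed by role, and 75 of them passed the filter. By edgeR's quasi-likelihood test at an adjusted p under 0.05, 25 rose and 28 fell, which is 70.7% of those tested. Over all genes tested 67.8% were called, 34.1% raised and 33.7% lowered, so the share is near the background. The counts by role below belong beside these same shares, and no role was tested as a set. Their median log2 fold change was -0.06, against 0.02 over all genes.

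**Figure D4:**
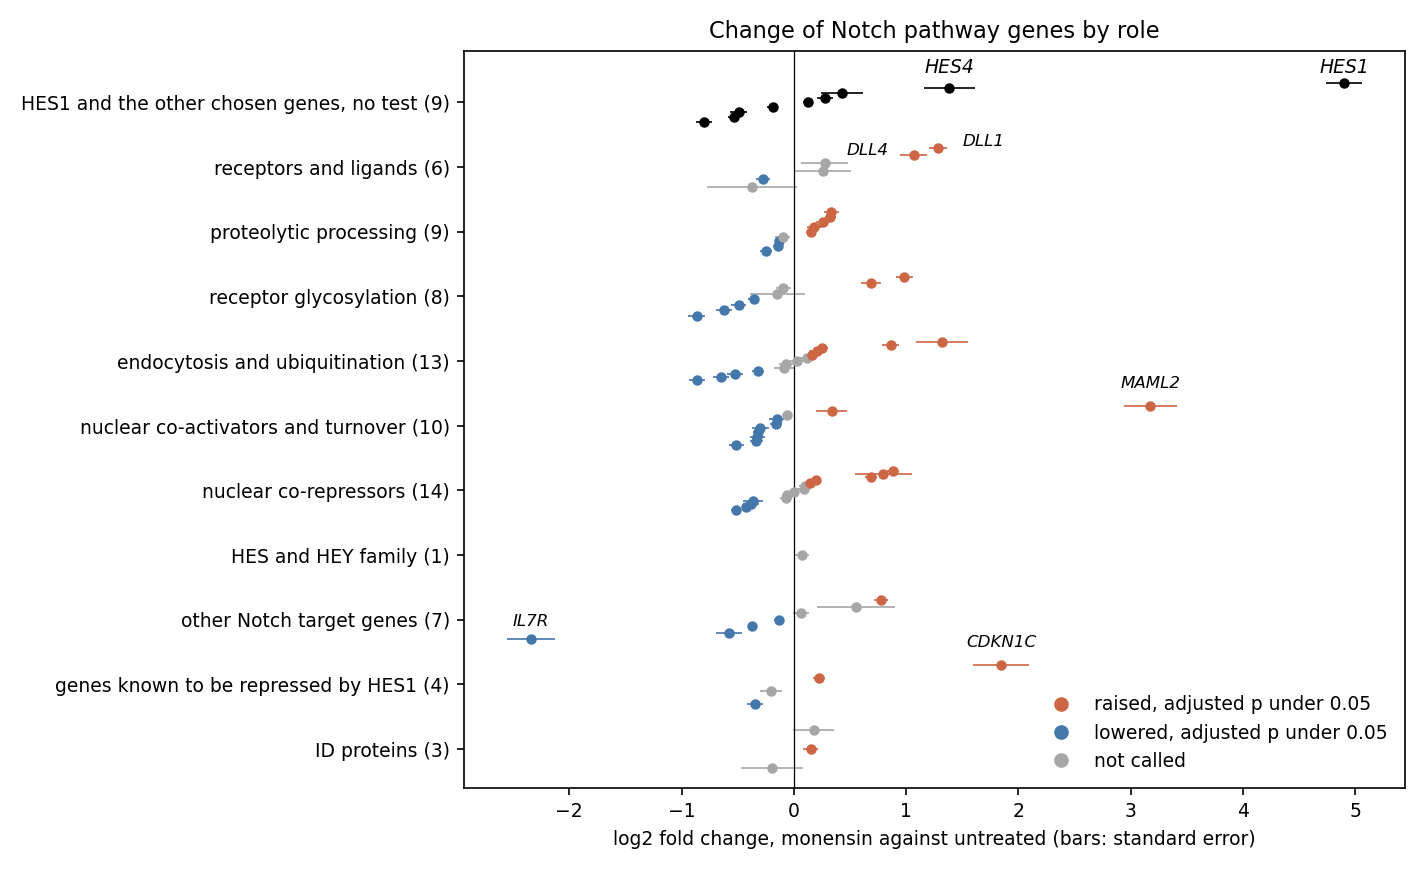
Log2 fold change of monensin against untreated with its standard error for each fitted gene, by role; the number of genes is in brackets. MAML2 at 3.18, CDKN1C at 1.85, DTX3 at 1.32, DLL1 at 1.28 and DLL4 at 1.07 stand to the right, IL7R at -2.34 to the left, and the other roles spread on both sides of 0.

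Among 6 further receptors and ligands that were tested, 2 rose and 1 fell. The Delta-like ligands DLL1 and DLL4 rose together. DLL1 had 9.38, 8.49 and 10.4 CPM in untreated and 23.9, 23.5 and 21.5 CPM in monensin libraries (log2 fold change 1.28, SE 0.08, edgeR adjusted p = 1.55e-09). DLL4 had 3.41, 3.39 and 4.13 CPM against 7.71, 6.76 and 8.48 CPM (1.07, SE 0.12, edgeR adjusted p = 1.47e-06). JAG2, a relative of JAG1, fell from 44.5 ± 2.86 to 36.9 ± 2.36 CPM (edgeR adjusted p = 0.00129). Per length, JAG2 had 23.0 and DLL1 9.69 TPM in untreated cells, and 21.8 and 27.0 TPM in monensin cells. NOTCH4 (log2 fold change 0.28), DLL3 (0.26) and DLK2 (-0.37) were not called.

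Genes for cutting the receptor changed little. Of 9 tested, 5 rose and 3 fell, all by less than 0.35 on the log2 scale. PSEN2, a catalytic subunit of gamma-secretase, rose by 0.34 (SE 0.07), FURIN, the Golgi protease, by 0.32 (SE 0.05) and APH1B, another gamma-secretase subunit, by 0.26 (SE 0.06). PSENEN, at -0.10, was not called. Under at least 1 alternative, 1 of the 5 raised and all 3 lowered calls were lost, among them those of ADAM17, APH1A and ADAM10.

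Genes that put sugars on the receptor divided. Of 8 tested, 2 rose and 4 fell. The Fringe genes RFNG and LFNG, whose enzymes extend O-fucose, rose from 17 ± 1.38 to 33.7 ± 2.87 CPM (log2 fold change 0.99, SE 0.08, edgeR adjusted p = 1.5e-08) and from 5.62 ± 0.0746 to 9.06 ± 0.188 CPM (0.69, SE 0.09). GXYLT1, which adds xylose to O-glucose, fell from 32.6 ± 1.12 to 17.9 ± 1.93 CPM (-0.87, SE 0.07, edgeR adjusted p = 4.22e-08).

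Of 13 tested genes for endocytosis and ubiquitination, 5 rose and 4 fell. The call of 1 of the 5 was lost under at least 1 alternative. The ubiquitin ligases MIB1 and MIB2, which act on Notch ligands, moved in opposite directions. MIB1 had 95.0, 115 and 112 CPM in untreated and 62.4, 61.3 and 54.1 CPM in monensin libraries (-0.86, SE 0.07, edgeR adjusted p = 3.43e-08). MIB2 had 26.7, 22.3 and 23.4 CPM against 40.4, 43.7 and 48.0 CPM (0.86, SE 0.08, edgeR adjusted p = 6.88e-08). DTX3, of the Deltex family, rose from 0.702 ± 0.149 to 1.76 ± 0.244 CPM.

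Of 10 tested co-activators and turnover genes 7 fell and 2 rose. Over all genes tested 33.7% fell and 34.1% rose, and this small list was not tested as a set. The calls of CREBBP, KAT2A, KAT2B and CCNC, 4 of the 7, were lost under at least 1 alternative (CCNC at -0.059, adjusted p = 0.295, after the correction for GC content and length). The exception with the greatest change was MAML2, a relative of MAML1. It had 9, 8 and 15 counts in untreated and 109, 112 and 76 in monensin libraries, a log2 fold change of 3.18 (SE 0.24, edgeR adjusted p = 1.04e-08). Per length it stayed far below MAML1, at 2.13 against 44.1 TPM with monensin. MAML3 rose by 0.34 (SE 0.14, edgeR adjusted p = 0.0442), but 10 alternatives took it past the threshold, DESeq2 among them (adjusted p = 0.163). EP300, a histone acetyltransferase that Notch complexes recruit, fell from 160 ± 13.2 to 112 ± 9.40 CPM (-0.51, SE 0.07).

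Co-repressors split, with 5 of 14 tested raised and 4 lowered, of which 3 and 1 lost the call under at least 1 alternative. TLE3, a Groucho family protein that HES repressors recruit, rose from 53.8 ± 3.10 to 99.1 ± 2.63 CPM (0.88, SE 0.05, edgeR adjusted p = 6.26e-10). CIR1, which links RBPJ to histone deacetylases, rose by 0.69 (SE 0.06). The histone deacetylase HDAC2 fell from 271 ± 7.48 to 189 ± 0.751 CPM (-0.52, SE 0.04).

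Of 7 further Notch targets that were tested, 4 fell and 1 rose. The call of 1 of the 4 was lost under at least 1 alternative. IL7R, the interleukin 7 receptor and a Notch target in T cell precursors, fell from 3.04 ± 0.313 to 0.591 ± 0.129 CPM (-2.34, SE 0.21, edgeR adjusted p = 9.36e-08). IGF1R, a growth factor receptor, fell by 0.58 on the log2 scale (SE 0.11). The cell cycle inhibitor CDKN1A rose from 14.6 ± 0.741 to 25.0 ± 0.623 CPM. CCND1 and SNAI2 were not called.

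Among genes that HES1 protein is known to repress elsewhere, 4 of 8 passed the filter, of which 2 rose and 1 fell. CDKN1C, a cyclin-dependent kinase inhibitor, rose from 0.834 ± 0.369 to 3.01 ± 0.518 CPM (1.85, SE 0.25, edgeR adjusted p = 8.21e-06). CDKN1B, its relative, rose by 0.22 (SE 0.05), while the receptor kinase FLT3 fell from 48.8 ± 4.74 to 38.4 ± 1.77 CPM (-0.34, SE 0.07). NEUROG3 was not called. ID proteins bind helix-loop-helix factors and keep them from DNA. Of 3 tested, ID2 rose by 0.15 (SE 0.06, edgeR adjusted p = 0.0478), a call lost under DESeq2 (adjusted p = 0.0753), and the correction for GC content and length gave -0.037. ID1 and ID3 were not called, but ID1 was raised by 0.54 without untreated library 3 (edgeR adjusted p = 0.000811).

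The 5 genes most like HES1 over the 6 libraries, by Euclidean distance between log2 CPM values centred on the untreated mean, were HOXB9, GDF15, SDS, STC2 and NBPF17P. Distances ran from 1.19 to 1.27 among 16541 genes compared. STC2, a secreted glycoprotein, had 0.948 ± 0.132 CPM in untreated and 28.8 ± 1.67 CPM in monensin libraries. CPM are not divided by length, so the levels of these genes are not compared with that of HES1. GDF15, a secreted stress factor, had 0.138 ± 0.0293 and 5.62 ± 0.358 CPM, and SDS, serine dehydratase, 0.191 ± 0.0429 and 8.77 ± 0.634 CPM. HOXB9 was near 0 in untreated libraries, at 0.0270 ± 0.0467 against 1.85 ± 0.0667 CPM. NBPF17P, a pseudogene, had 0.0958 ± 0.0223 and 3.55 ± 0.552 CPM. The log2 fold change was 5.84 for HOXB9, the nearest by distance, and 4.92 for STC2, against 4.90 for HES1. With 6 libraries in 2 groups the distance mostly reflects the size of the difference between groups.

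Gene counts per library ran from 22975888 to 25710513. All 10 monocytic markers listed averaged over 1 CPM over the 6 libraries and summed to 1812 to 1889 CPM in untreated and 1677 to 1751 CPM in monensin libraries. Within that sum LYZ had 791 ± 14.3 and 292 ± 24.2 CPM, CEBPA 499 ± 10.1 and 799 ± 6.18 CPM, CD68 3.20 ± 0.142 and 6.86 ± 0.639 CPM, and CD14 0.480 ± 0.0691 and 2.37 ± 0.289 CPM in untreated and monensin libraries. All 5 erythroid markers were at 0, as were 4 of 5 epithelial ones (0.386 to 0.601 and 0.429 to 0.857 CPM in sum). Of 7 T cell markers CD3E, CD3G and LCK were at 0, and their sum was 0.214 to 0.485 CPM in untreated and 1.64 to 1.97 CPM in monensin libraries. The 5 B cell markers summed to 4.93 to 5.50 and 7.21 to 8.70 CPM, and the 5 fibroblast markers, with COL1A2 and COL3A1 at 0, to 1.93 to 2.77 and 3.12 to 3.51 CPM. The 5 endothelial markers summed to 258 to 265 and 305 to 328 CPM, nearly all from PECAM1, which monocytes also express, with CDH5 at 0. The part of these differences in the results above was not tested.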

How the data were processed

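RNA of 3 untreated and 3 monensin-treated THP-1 samples was sequenced from directional libraries, per the labels' protocols. The authors deposited raw counts of reads per Ensembl gene, made with Trimmomatic 038, HISAT2 2.1.0 and HTSeq 0.11.1 on hg38, per the submitters' processing notes. For the strand setting and annotation release: not given in the sources used here. A second file, deposited with the counts, lists 2410 genes with log2 fold changes, per the file headers.

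Groups came from the treatment label. Counts, without the 5 tally lines, were fitted with edgeR 4.0.16 in R 4.3.3 (filterByExpr, TMM, quasi-likelihood F test, Benjamini-Hochberg over all 16542 genes), treatment being the only term. CPM use TMM-scaled library sizes. Fold changes use a prior count of 0.125, and standard errors come from the F statistic. TPM use union exonic lengths of GENCODE 29 (GRCh38), which held 58275 of 58395 genes. All 148 entries of the gene lists, markers included, were matched. Tests were tried on simulated data in which far fewer genes were changed than were called here. That trial therefore does not show how the calls behave when most genes differ. Counting intervals are exact at 95% and cover counting error only. No label says that replicates were separate cultures, so a p-value here reflects spread among 6 samples that may be technical only.

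The genes and lists were chosen with earlier results of these data known. Beside the 10 genes, the text names up to 3 called genes per list with the greatest change and an average log2 CPM of at least 0, genes not called only from lists with 5 or fewer of them, not all of which are named, and the 5 nearest to HES1. Alternatives were DESeq2 1.42.0, RLE size factors, total counts, dropping the filter or requiring 1 CPM in 3 libraries with 50 counts, leaving each library out, blocking on replicate number, a prior count of 2, removal of GC content and length trends (mgcv 1.9.3), and other gene lengths. One pathway gene of the lists is counted but not reported here by name.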

Additional observations from a re-analysis of the deposited data

How the results depend on the processing

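Over all genes, 5638 rose and 5570 fell, and each count stayed within 1.5 times of this under every alternative. Total counts gave 6582 and 4605, DESeq2 gave 4844 and 5206, and leaving out a library gave 5211 to 5493 raised and 5260 to 5484 lowered. Of the 96 other pathway genes, 21 to 29 rose and 23 to 28 fell over all alternatives. Of the 53 called, 37 kept their call under every alternative and 16 lost it under at least 1, and 11 that were not called were called under at least 1. Among the genes named here, removing GC content and length trends reversed HES6 (-0.047), ADAM10 (0.087), NEURL1 (-0.17), ITCH (0.19) and ID2 (-0.037). The cause was not tested. HES1 ran from 4.66 to 5.49 when a library was left out.

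No pairing by the shared replicate numbers was seen: same-numbered libraries had deviations correlated at -0.43, 0.31 and -0.16. Differently numbered libraries ran from -0.44 to 0.49. With 3 libraries per group, such correlations cannot decide whether the libraries were paired. With the number as a replicate block, 5515 genes rose and 5435 fell, and 24 and 27 of the pathway genes. The block took the calls of MAML3 (adjusted p = 0.0583) and CREBBP (adjusted p = 0.0559).

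The order of the 10 genes by TPM depends on the length: with coding length NRARP stood second in untreated cells, and RBPJ in place of HES6 stood first in monensin cells. Counts of HES1, HES4, HEY1 and JAG1 are low in untreated libraries, which limits the precision of their ratios.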

Other observations

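Untreated library 3 held more HES1 than the other untreated libraries, and ID1 and ID3 were high in the same library. HES1 was 2.53 times the mean of untreated libraries 1 and 2, the 5th highest such ratio among the 14343 genes whose average log2 CPM was 0 or more. That average covers monensin libraries too, and the untreated mean of HES1 was only 0.845 CPM, from counts of 14, 13 and 35. The ranks take no account of counting error, which is large at such counts. ID3 had 3.17, 3.47 and 8.21 CPM in untreated libraries 1, 2 and 3, a ratio of 2.47, the 7th highest. ID1 had 15.4, 12.4 and 25.9 CPM, a ratio of 1.87, the 24th highest. ID2 had a ratio of 1.18, ranked 990, and ID4 had 0 counts in every library. Only 16 genes had a ratio of 2 or more. CDKN1C was also among them at 2.01, from counts of 14, 16 and 31. The other 8 of the chosen Notch genes that were fitted had ratios between 0.912 (HES4) and 1.14 (NOTCH2). Of the other pathway genes examined, MAML2 had a ratio of 1.72, ranked 45, from counts of 9, 8 and 15. DLL4 had a ratio of 1.21 and DLL1 of 1.17. This pattern was noticed after the values were seen, rests on 1 library and has no test.

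With monensin, ID3 had 4.83, 3.36 and 4.88 CPM and ID1 19.0, 18.8 and 23.2 CPM, below their values in untreated library 3 in all 3 monensin libraries, whereas HES1 was at least 25.1 CPM in each of them.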
